A study of Mus musculus with 14 samples.

Results

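The RNA of 9 genes that write, copy and remove DNA methylation was followed in sorted mouse male germ cells: the DNA methyltransferase genes Dnmt1, Dnmt3a, Dnmt3b and Dnmt3c, their partners Dnmt3l and Uhrf1, and the genes of the TET enzymes Tet1, Tet2 and Tet3. They were chosen by name, and all 9 were found among the 31111 genes that both deposited count tables hold. Polyadenylated RNA was sequenced from spermatogonia (Spg), which have not entered meiosis, and from spermatocytes (Spc), which have. Spg came from 3 Dnmt3CKO/KO (KO) and 3 wild-type (WT) samples, and Spc from 4 of each, collected from littermates on a C57Bl6/J background. The KO is constitutive and animals of both genotypes were otherwise untreated. Spg were sorted with antibodies from juvenile testes, whereas Spc came from older animals and were sorted by their DNA content, so that stage, age and sort cannot be told apart. Meiosis in the KO arrests at pachytene. The libraries held between 40555726 and 53323651 counts each. Levels are given as CPM, counts relative to the library total after scaling by trimmed means over all 14 libraries. In sorted bulk samples, fewer cells that use a gene and less of its RNA per cell cannot be told apart.

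In mammals, DNA methylation is laid down de novo by the DNMT3 enzymes and copied at replication by DNMT1, which UHRF1 brings to hemimethylated sites. DNMT3L has no catalytic activity of its own and assists the de novo enzymes. DNMT3C is a rodent enzyme that arose by duplication of Dnmt3b and methylates the promoters of young retrotransposons in fetal male germ cells, before the stages studied here. TET enzymes oxidise 5-methylcytosine, which opens the way to its removal.

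Dnmt3b and Dnmt3c lie side by side in the same direction on chromosome 2 of GRCm38, Dnmt3b at chr2:153649450-153687730 and Dnmt3c at chr2:153696652-153729907, with 8921 bp between them. In a local alignment of their longest annotated coding sequences (GENCODE vM21, 2583 and 2223 bases), 1973 of 2199 aligned bases, or 89.7%, were identical, and the longest run without a difference had 287 bases. The exons of the Dnmt3c model sum to 2223 bases, its coding length. The stretches below, coding bases 1426 to 1515 of Dnmt3b against 1069 to 1158 of Dnmt3c and then 2476 to 2565 against 2116 to 2205, are shown because reads from them bear on every Dnmt3c count. They are the most similar window of 90 bases and a median one, and capitals mark the bases that differ.
Dnmt3b, most similar window: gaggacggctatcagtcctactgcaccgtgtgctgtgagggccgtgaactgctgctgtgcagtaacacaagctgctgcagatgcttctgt
Dnmt3c, most similar window: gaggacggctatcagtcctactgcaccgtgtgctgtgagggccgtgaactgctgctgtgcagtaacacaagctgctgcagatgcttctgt
Dnmt3b, median window: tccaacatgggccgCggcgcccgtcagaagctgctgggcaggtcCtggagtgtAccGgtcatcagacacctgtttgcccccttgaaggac
Dnmt3c, median window: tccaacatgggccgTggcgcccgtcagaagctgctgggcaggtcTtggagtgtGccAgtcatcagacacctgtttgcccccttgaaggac
The first pair holds 0 differences and the second 4. Of all distinct windows of 100 bases in the annotated Dnmt3c transcripts, 11.3% also occurred in a transcript of another gene, in each case Dnmt3b, and of those of Dnmt3b 4.47% occurred in Dnmt3c. The share was 5.53% for Uhrf1, shared with Gm5648, 0.102% for Tet1, shared with Gm35507, and 0 windows for the other 5 genes. Values of Dnmt3c are therefore uncertain to the extent that reads of its far more abundant neighbour were split between them.

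The other genes lie apart: Dnmt1 at chr9:20907209-20959888, Uhrf1 at chr17:56303321-56323486, Dnmt3a at chr12:3806007-3914443, Dnmt3l at chr10:78041947-78063622, Tet1 at chr10:62804570-62908996, Tet2 at chr3:133463679-133545139 and Tet3 at chr6:83362373-83459084. Dnmt3a, Dnmt3b, Dnmt3l and Tet2 overlap a gene on the opposite strand, Tet3 genes on both strands, and Dnmt1 and Tet1 small genes on their own strand. Counting used the strand, so only overlaps on the same strand could share reads.

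RefSeq promoters (GRCm38.p6, 300 bases around a start, most of them upstream) were held for 8 of the 9 genes, 15 promoters in all, and not for Dnmt3c. Their CpG content, the substrate of these enzymes, ran from 2 CpGs in the farthest upstream Dnmt1 promoter to 57 in that of Tet2, against a median of 7 over 32851 promoters. Of all promoters, 99.8% had fewer CpGs than that of Tet2, 88.3% fewer than that of Dnmt3b (30 CpGs), 76.9% fewer than that of Tet3 (22) and 68.6% fewer than that of Tet1 (17). The 3 promoters of Dnmt3l had 6, 4 and 3 CpGs. The promoters below belong to genes that rose (Tet2, Tet1, Dnmt3b) or fell (Dnmt3l) in KO in the spermatocyte comparison. Those of Tet3 and Dnmt3a, which moved more than Dnmt3b, and of Uhrf1, which fell, are not shown. Of the 3 promoters of Dnmt3l the middle one is shown. Each CpG is in capitals and each sequence is written 5′ to 3′ on the strand of its gene.
Tet2 at chr3:133544341-133544640 (minus strand): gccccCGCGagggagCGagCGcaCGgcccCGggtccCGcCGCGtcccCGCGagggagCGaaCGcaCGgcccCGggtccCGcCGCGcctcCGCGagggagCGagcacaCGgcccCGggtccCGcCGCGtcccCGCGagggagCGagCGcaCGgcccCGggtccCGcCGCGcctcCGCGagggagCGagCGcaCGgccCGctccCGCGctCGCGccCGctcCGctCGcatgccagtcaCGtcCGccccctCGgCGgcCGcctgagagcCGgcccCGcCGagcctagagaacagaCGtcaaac
Tet1 at chr10:62887275-62887574 (minus strand): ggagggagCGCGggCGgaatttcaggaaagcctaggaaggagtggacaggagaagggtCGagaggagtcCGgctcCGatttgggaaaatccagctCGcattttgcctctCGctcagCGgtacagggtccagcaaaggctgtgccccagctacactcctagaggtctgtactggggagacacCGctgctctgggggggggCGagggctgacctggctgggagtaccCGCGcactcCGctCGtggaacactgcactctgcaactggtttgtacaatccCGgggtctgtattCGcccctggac
Dnmt3b at chr2:153649199-153649498 (plus strand): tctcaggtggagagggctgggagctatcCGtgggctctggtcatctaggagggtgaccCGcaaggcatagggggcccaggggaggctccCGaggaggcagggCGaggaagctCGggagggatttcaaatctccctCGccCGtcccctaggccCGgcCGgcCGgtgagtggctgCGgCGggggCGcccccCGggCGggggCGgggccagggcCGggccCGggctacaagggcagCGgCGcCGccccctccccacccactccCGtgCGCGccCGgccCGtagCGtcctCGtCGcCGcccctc
Dnmt3l at chr10:78049592-78049891 (plus strand): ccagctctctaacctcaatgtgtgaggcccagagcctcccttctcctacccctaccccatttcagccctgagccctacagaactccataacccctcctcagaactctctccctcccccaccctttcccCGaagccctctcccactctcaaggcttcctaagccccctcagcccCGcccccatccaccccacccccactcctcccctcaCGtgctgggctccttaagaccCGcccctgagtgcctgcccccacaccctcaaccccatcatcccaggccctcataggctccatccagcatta
In addition, 9 short motifs were searched on both strands of the same promoters: the NRF1 palindrome, which is GCGCA joined to its reverse complement, the shorter TGCGCA, which can overlap it, TTTCCCGC (E2F), TGACGTCA and its part TGACG (CRE), GGGCGG (SP), CACGTG (E-box), CCGGAAGT (ETS) and CCAAT. The palindrome, a binding motif of the methylation-sensitive factor NRF1, was found in 2 of the 3 Dnmt1 promoters and in no promoter of the other 7 genes, against 0.971% of all promoters. Both are shown with that motif in capitals.
Dnmt1, middle start at chr9:20952930-20953229 (minus strand): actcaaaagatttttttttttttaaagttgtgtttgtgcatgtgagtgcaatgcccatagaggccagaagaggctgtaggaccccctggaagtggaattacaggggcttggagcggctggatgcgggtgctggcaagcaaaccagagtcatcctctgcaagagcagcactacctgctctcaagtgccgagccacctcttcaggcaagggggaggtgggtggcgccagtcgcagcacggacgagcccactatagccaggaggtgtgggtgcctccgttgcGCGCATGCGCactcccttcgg
Dnmt1, downstream start at chr9:20952574-20952873 (minus strand): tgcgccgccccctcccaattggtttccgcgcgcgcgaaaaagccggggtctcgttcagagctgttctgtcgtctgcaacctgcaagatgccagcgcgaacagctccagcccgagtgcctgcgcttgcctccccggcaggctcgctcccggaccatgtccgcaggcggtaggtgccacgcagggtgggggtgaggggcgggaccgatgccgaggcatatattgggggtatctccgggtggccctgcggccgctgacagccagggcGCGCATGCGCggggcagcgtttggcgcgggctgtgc
CACGTG was found in 1 promoter each of Dnmt3a and Dnmt3l (7.15% of all promoters), and GGGCGG in 1 or more promoters of all 8 genes (35.7%). CCAAT (37.4%) was found in promoters of Dnmt1, Uhrf1 and Tet3, TGCGCA (7.76%) in 1 of Dnmt1, and TGACG (20.8%) in 1 each of Dnmt3l and Tet2. TTTCCCGC (1.07%), TGACGTCA (1.79%) and CCGGAAGT (3.89%) were found in 0 of the 15. These are matches of letters and not measured binding.

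The targeted gene was examined first. In Spg, Dnmt3c had 116, 58 and 67 counts in the KO (replicates 1 to 3) and 89, 65 and 53 counts in WT. In Spc it had 55, 56, 52 and 57 counts in the KO (replicates 1 to 4) and 28, 11, 19 and 25 counts in WT. RNA was thus counted over the gene in both genotypes, with overlapping groups in Spg and KO above WT in Spc. Which part of the gene the KO allele lacks was not given in the labels, so counts over the whole gene do not check the genotype. Dnmt3c was not called in either stage, with a log2 fold change of 0.10 (SE 0.38) in Spg and 0.77 (SE 0.42, adjusted p 0.124 by edgeR) in Spc. In Spc the adjusted p ranged from 0.00642 to 0.364 over the alternatives, the lowest under scaling by library totals (log2 fold change 1.52).

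In WT Spg, levels between genes were compared as CPM per kb of exons, and the maintenance pair stood highest. Dnmt1 reached 76.9 ± 17.2 CPM per kb (SD, n = 3) and Uhrf1 70.7 ± 9.96, and their libraries overlapped. Dnmt3b followed with 24.7 ± 5.20 CPM per kb, then Dnmt3a with 9.84 ± 1.70 and Tet3 with 8.91 ± 2.11, the last pair again overlapping. The remaining 4 genes were far lower than Tet3: Dnmt3c with 0.569 ± 0.130 CPM per kb, Dnmt3l with 0.223 ± 0.0729, Tet2 with 0.206 ± 0.0239 and Tet1 with 0.0841 ± 0.0424. Of these, the Dnmt3l and Tet2 libraries overlapped. Within the Dnmt3 family, Dnmt3b made up 69.7% of the summed level per kb and Dnmt3a 28.1%, and within the Tet family Tet3 made up 96.8%. In KO Spg the order was the same apart from Tet2 and Dnmt3l, whose libraries overlapped there too.

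**Figure D1:**
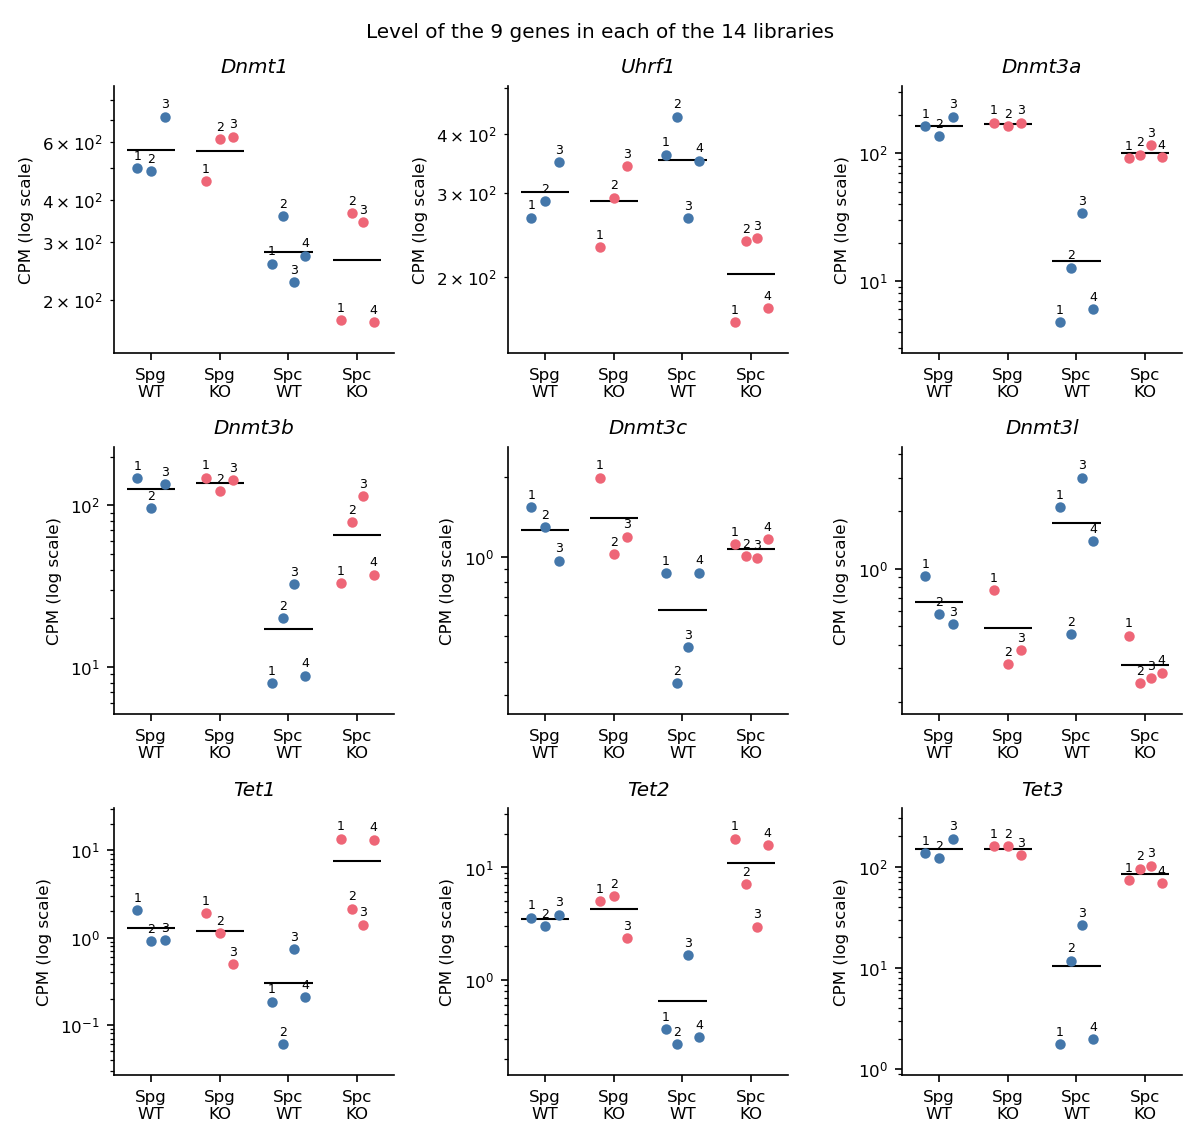
Level of each gene in CPM (log axes) in the 14 libraries, with the replicate number beside each point, WT in blue, KO in red and the group mean as a line. The Spg groups overlap for all 9 genes (12.6% of all genes are without overlap), whereas the Spc groups are apart for all but Dnmt1 (66.1% of all genes).

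The comparison of KO with WT in Spg asks whether the other enzymes change when DNMT3C has been absent since before birth. None of the 9 genes was called. Dnmt1 was at 456, 612 and 621 CPM in KO replicates 1 to 3 and at 499, 489 and 714 CPM in WT. Uhrf1 was at 231, 294 and 342 CPM in KO and at 267, 288 and 348 CPM in WT. Dnmt3a lay between 162 and 173 CPM in KO and between 136 and 193 CPM in WT, and Dnmt3b between 122 and 148 CPM in KO and between 96.0 and 146 CPM in WT. In each case the KO and WT ranges overlapped, as they did for all 9 genes, whereas 12.6% of all genes were without overlap. Tet3 lay between 130 and 161 CPM in KO and between 122 and 189 CPM in WT, and Tet2 between 2.36 and 5.55 CPM against 3.02 and 3.80 CPM.

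Accordingly, 0 of the 9 were called at an edgeR adjusted p under 0.01, against 0.0741% of all features tested in Spg (0.0695% higher, 0.00463% lower), and 0 had an unadjusted p under 0.05 or were called by DESeq2. With the replicate number as a block, 0 of the 9 were called beside 119 of 21580 features (38 higher, 81 lower), against 16 without it (15 higher, 1 lower). Fitted log2 fold changes ran from -0.49 (SE 0.48) for Dnmt3l to 0.28 (SE 0.36) for Tet2, with a median of -0.02 beside 0.02 over all genes. The SE was smallest for Dnmt3a (0.13) and largest for Tet1 (0.55), so that the comparison was much sharper for the abundant genes. The lowly expressed Dnmt3l and Tet1 were highest in replicate 1 of both genotypes, Dnmt3l at 0.771 CPM in KO and 0.916 in WT and Tet1 at 1.92 and 2.06. The sum of 7 Sertoli cell markers was also highest in these libraries, at 508 and 417 CPM against 119 to 223 CPM in the other 4 Spg libraries. In the same Spg libraries, 8 pachytene markers summed to 191, 153 and 164 CPM in KO and 510, 1602 and 269 CPM in WT. The 7 spermatid markers counted in both stages summed to 2.55 to 3.25 CPM in KO and 4.42 to 22.5 CPM in WT. The sums did not overlap for either list, and WT replicate 2 stood apart. By edgeR, 0 of 7 pachytene and 0 of 4 spermatid markers tested were called. At an unadjusted p under 0.05, 5 and 1 were lower in KO, and DESeq2 called 3 and 1 lower. With the replicate block, edgeR called 0 and 1. The sums of 8 early meiotic markers overlapped (822 to 1314 CPM in KO, 1244 to 1415 CPM in WT). Of these, edgeR called 0, and 2 were lower in KO at an unadjusted p under 0.05. The part of such cells in these values was not tested.

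In Spc, of the 9 genes, 7 were called, 5 higher and 2 lower in KO, against 57.4% of all features tested (27.4% higher, 30.1% lower). With replicates 1 and 4, which were nearly alike, summed in each genotype, 2 were called, against 8874 of 23213 features. The KO and WT groups did not overlap for 8 of the 9, against 66.1% of all genes. Neither the 7 calls nor this count sets these genes apart from the transcriptome. The median log2 fold change of the 9 was 1.97 beside 0.11 over all genes. Dnmt3a, Dnmt3b and all 3 Tet genes were higher in KO, whereas Dnmt3l and Uhrf1 were lower and Dnmt1 was not called.

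**Figure D2:**
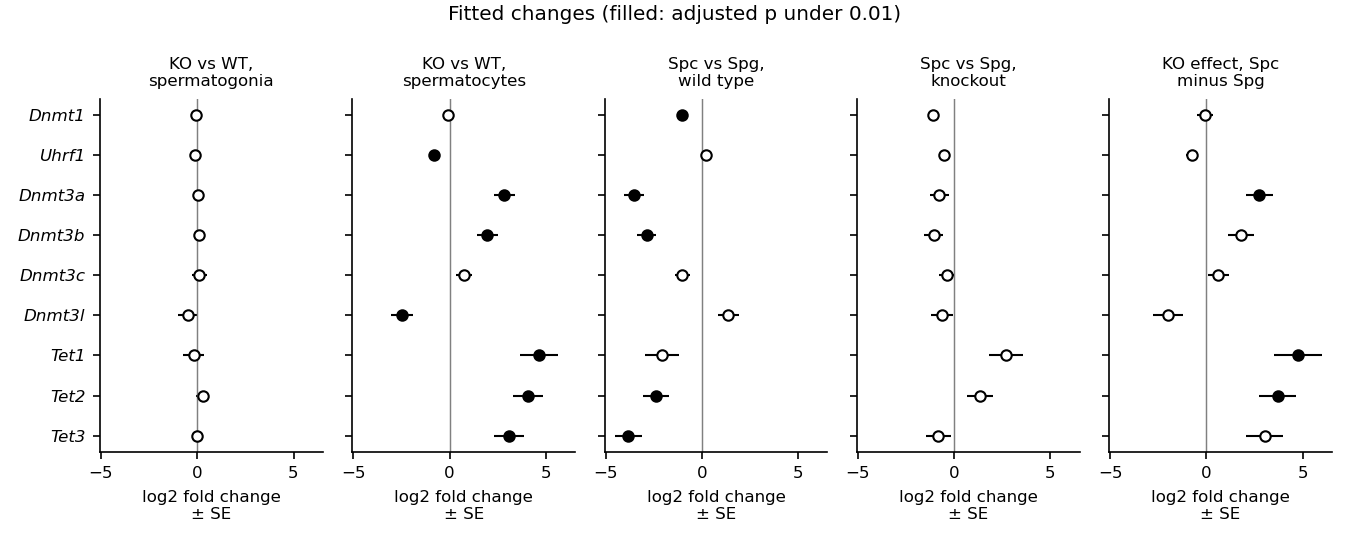
Fitted log2 fold changes with standard errors for the 9 genes in 5 comparisons, with filled circles for an edgeR adjusted p under 0.01. No Spg value is filled, and in Spc Tet1, Tet2, Tet3 and Dnmt3a show the largest increases in KO.

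Among the de novo enzymes, Dnmt3a was at 91.8, 97.7, 116 and 93.7 CPM in KO Spc replicates 1 to 4 and at 4.75, 12.7, 33.9 and 6.02 CPM in WT. Every KO library exceeded every WT library, and the spread relative to the mean was far wider in WT. The log2 fold change was 2.84 (SE 0.56, adjusted p 0.00127 by edgeR). The call held in all 8 fits that left out 1 library, and the adjusted p reached at most 0.00692 over all alternatives. Dnmt3b was at 33.1, 78.4, 114 and 37.2 CPM in KO and at 7.93, 19.95, 32.4 and 8.84 CPM in WT. Its groups were separated by little, the lowest KO library lying just above WT replicate 3. Its log2 fold change was 1.97 (SE 0.54, adjusted p 0.00789 by edgeR), and it was called in only 3 of the 8 fits that left out 1 library, with an adjusted p of up to 0.0239 without KO replicate 3. Dnmt3l moved the other way, with 22, 14, 14 and 14 counts in KO against 68, 15, 125 and 40 in WT, or 0.312 ± 0.0897 CPM against 1.73 ± 1.08 (SD, n = 4). Its log2 level fell by 2.45 (SE 0.57, adjusted p 0.00333 by edgeR). WT replicate 2, with 0.452 CPM, lay next to KO replicate 1 with 0.445, and the call was kept in 5 of the 8 fits that left out 1 library, the adjusted p reaching 0.0122 without KO replicate 2.

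Of the maintenance pair, Uhrf1 was at 160, 238, 241 and 172 CPM in KO Spc and at 362, 435, 265 and 351 CPM in WT. All KO libraries lay below all WT libraries. Its log2 level fell by 0.78 (SE 0.22, adjusted p 0.00961 by edgeR), a value at the edge of the threshold. It was called in 1 of the 8 fits that left out 1 library, without WT replicate 3, and the largest adjusted p among the other 7 was 0.0368, without KO replicate 1. Scaling by library totals, which moved the median of all genes from 0.11 to 0.79, brought it to -0.04. Dnmt1 was at 174, 365, 343 and 171 CPM in KO and at 258, 358, 227 and 272 CPM in WT. The groups overlapped, and 2 KO libraries lay below and 2 within or above the WT range. Its log2 fold change was -0.06 (SE 0.29, adjusted p 0.864 by edgeR), and it was not called under any alternative. Its sign was positive under some of them, up to 0.68 with library totals.

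All 3 TET genes were called higher in KO Spc. Tet3, by far the most abundant of them, was at 73.4, 95.8, 103 and 69.0 CPM in KO Spc and at 1.76, 11.8, 26.3 and 1.98 CPM in WT. The groups were well apart, and WT replicate 3 was the closest to KO. The log2 fold change was 3.08 (SE 0.77, adjusted p 0.00492 by edgeR), kept in 5 of the 8 fits that left out 1 library, with a largest adjusted p of 0.0151 without WT replicate 2. Tet1 had 669, 120, 74 and 652 counts in KO and 6, 2, 31 and 6 in WT, or 13.5, 2.15, 1.41 and 13.3 CPM against 0.185, 0.0603, 0.743 and 0.209 CPM. Tet2 had 888, 395, 157 and 770 counts in KO and 12, 9, 70 and 9 in WT, or 18.0, 7.08, 2.99 and 15.7 CPM against 0.370, 0.271, 1.68 and 0.313 CPM. For both, KO replicates 1 and 4 were above replicates 2 and 3. The log2 fold changes were 4.65 for Tet1 (SE 0.98, adjusted p 0.00195 by edgeR) and 4.06 for Tet2 (SE 0.79, adjusted p 0.00123 by edgeR), each called in all 8 fits that left out 1 library.

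Several Spc libraries stood apart, and their values bear on these results. KO replicates 1 and 4 were much alike, as were WT replicates 1 and 4, with an SD of log2 differences over 11045 features of 0.161 and 0.192, against 0.516 to 1.08 in the other Spc pairs. Their chi-square per degree of freedom was 11.7 and 15.5, above counting noise, which does not tell whether they share an animal or a sort. The labels list them as separate samples and were followed, so that n = 4. The study describes collecting triplicates, but its total of sorted samples, with the Spg replicate it left out, matches the labels. If they share an animal, the p-values of every Spc comparison are too small. With replicates 1 and 4 summed within each genotype, 2 of the 9 genes were called, Dnmt3a (2.61) and Tet2 (3.61), against 8874 of 23213 features. With KO replicates 1 and 4 left out, 2 were called, Dnmt3a (2.93) and Dnmt3b (2.51), against 9327 of 25079 features. In that fit Tet1 was at 2.55 (SE 0.81, adjusted p 0.0242 by edgeR), Tet2 at 2.93 (adjusted p 0.0125) and Tet3 at 3.29 (adjusted p 0.0147). Without WT replicate 3, Tet1 was at 5.65, Tet2 at 5.11, Tet3 at 4.07 and Dnmt3a at 3.70.

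Of the markers of other cells, edgeR called 6 of 6 Leydig, 6 of 6 macrophage, 4 of 6 peritubular, 2 of 4 endothelial and 1 of 7 Sertoli cell markers, all higher in KO Spc. With replicates 1 and 4 summed these counts were 2, 4, 2, 2 and 0. Of 2 erythroid markers tested 0 were called or had an unadjusted p under 0.05, also with DESeq2. In KO replicates 1 to 4 the 3 erythroid markers counted in both stages summed to 9.76, 1.00, 1.73 and 7.47 CPM. In WT they summed to 1.48 to 7.43 CPM. The summed level of 6 Leydig cell markers was 356, 57.3, 64.9 and 290 CPM in KO replicates 1 to 4 and 14.1 to 30.4 CPM in WT, and 7 Sertoli cell markers summed to 405, 153, 107 and 364 CPM in KO and 46.0 to 153 CPM in WT, so that the Sertoli sums overlapped. KO replicates 1 and 4 were thus high for both lists and for Tet1 and Tet2. Peritubular markers (6, among them the stromal genes Dcn and Col1a1) summed to 3234, 2239, 303 and 2748 CPM in KO replicates 1 to 4 and 29.8 to 40.8 CPM in WT. Macrophage markers (6) summed to 66.6, 129, 24.8 and 62.4 CPM against 4.45 to 6.64 CPM, and endothelial markers (4) to 146, 77.1, 19.7 and 131 CPM against 5.43 to 6.93 CPM. Macrophage markers were thus highest in replicate 2, where peritubular markers were also high, unlike Tet1 and Tet2. The peritubular, endothelial and erythroid sums, like the Leydig and Sertoli sums, were highest in KO replicates 1 and 4. All 6 Leydig and all 7 Sertoli markers had over 3 counts in every Spc library, and none was at 0. In contrast, 8 spermatogonial markers summed to 457, 1155, 1137 and 448 CPM in KO replicates 1 to 4 and to 42.5, 159, 283 and 37.6 CPM in WT replicates 1 to 4. KO replicates 2 and 3 were the high ones here, as they were for Dnmt1, Uhrf1, Dnmt3b and Tet3, and in WT replicates 2 and 3 were the high ones, as they were for Dnmt3a, Dnmt3b and Tet3. Markers of pachytene cells (8) summed to 228 to 511 CPM in KO and 8614 to 15432 CPM in WT. The 7 spermatid markers counted in both stages summed to 3.40 to 11.2 CPM against 259 to 1396 CPM. Early meiotic markers (8) overlapped, with sums of 1443 to 2822 CPM in KO and 1747 to 2782 CPM in WT. Of these, edgeR called 3 higher and 1 lower in KO, and 2 and 1 with replicates 1 and 4 summed. The part of cell composition in the differences between KO and WT Spc was not tested.

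**Figure D3:**
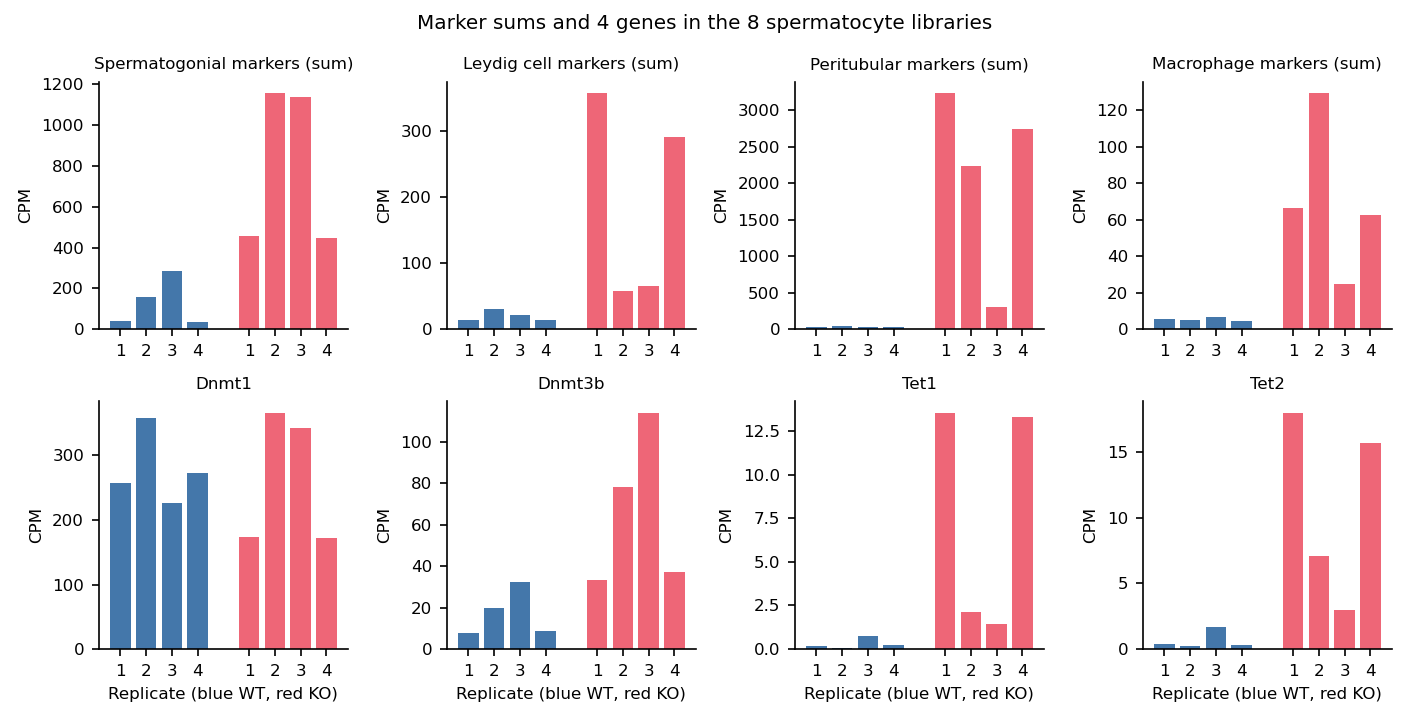
Summed CPM of 4 marker lists (top) and CPM of 4 genes (bottom) in Spc, with bars for replicates 1 to 4 of WT (blue) and KO (red). In KO, Leydig cell markers, Tet1 and Tet2 are high in replicates 1 and 4, and spermatogonial markers, Dnmt1 and Dnmt3b in replicates 2 and 3.

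WT Spc were set against WT Spg to describe how the genes differ between the stages. Of the 9 genes, 5 were called, all lower in Spc, against 51.4% of all features tested (22.5% lower). Tet3 went from 149 ± 35.2 CPM (SD, n = 3) in WT Spg to 10.4 ± 11.5 CPM (n = 4) in WT Spc, and its log2 level fell by 3.83 (SE 0.70, adjusted p 0.000329 by edgeR). Dnmt3a went from 164 ± 28.4 to 14.3 ± 13.5 CPM and fell by 3.51 (SE 0.51, adjusted p 6.32e-05 by edgeR), and Dnmt3b from 126 ± 26.5 to 17.3 ± 11.5 CPM and fell by 2.86 (SE 0.50, adjusted p 0.000221 by edgeR). The libraries of the stages did not overlap for 7 of the 9 genes, against 68.8% of all genes. Tet3, Dnmt3a and Dnmt3b were called whichever of the 14 libraries was dropped. Tet2 fell by 2.37 (SE 0.68, adjusted p 0.00709 by edgeR) and Dnmt1 by 1.03 (SE 0.28, adjusted p 0.00544 by edgeR). They kept their calls in 9 and 10 of these fits, with adjusted p of up to 0.0230 and 0.0162, both without Spc WT replicate 1. Uhrf1 had 301 ± 42.4 CPM in Spg and 353 ± 69.3 CPM in Spc, with overlapping libraries and a log2 fold change of 0.23 (SE 0.22, adjusted p 0.363 by edgeR). Dnmt3l (1.38), Dnmt3c (-1.01) and Tet1 (-2.07) had adjusted p between 0.0390 and 0.0492 and were not called. Scaling by library totals, under which the median of all genes moved from 0.02 to -0.76, brought Uhrf1 to -0.60 and Dnmt1 to -1.85. It also turned the split of all calls from 7325 higher and 5701 lower to 4631 and 8813. Of markers, edgeR called 8 of 8 spermatogonial lower and 8 of 8 pachytene and 7 of 7 spermatid higher in WT Spc. Of 8 early meiotic markers, 2 were higher and 2 lower. Of other cells, 3 of 6 Leydig, 1 of 6 peritubular, 1 of 6 macrophage and 1 of 3 erythroid markers were higher. Sertoli markers were lower for 2 of 7. The part of cell composition was not tested.

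In the order of levels per kb, Uhrf1 stood first in WT Spc with 83.0 ± 16.3 CPM per kb (SD, n = 4), above every Dnmt1 library (37.8 ± 7.59). Dnmt3b followed with 3.38 ± 2.24, and from Dnmt3b to Dnmt3c each gene overlapped the next. Dnmt3l made up 13.3% of the summed Dnmt3 level per kb in WT Spc (3.04% to 23.97% by library), against 0.638% in WT Spg and 0.642% in KO Spc. The summed Dnmt3 level itself was 35.3 ± 6.55 CPM per kb in WT Spg, 5.11 ± 3.13 in WT Spc and 19.4 ± 8.03 in KO Spc. The Tet family summed to 9.20 ± 2.12 CPM per kb in WT Spg, 0.684 ± 0.744 in WT Spc and 6.24 ± 0.222 in KO Spc. The KO Spc libraries differed little in this sum, from 5.92 to 6.42, although Tet3 made up between 69.4% and 95.8% of it.

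**Figure D4:**
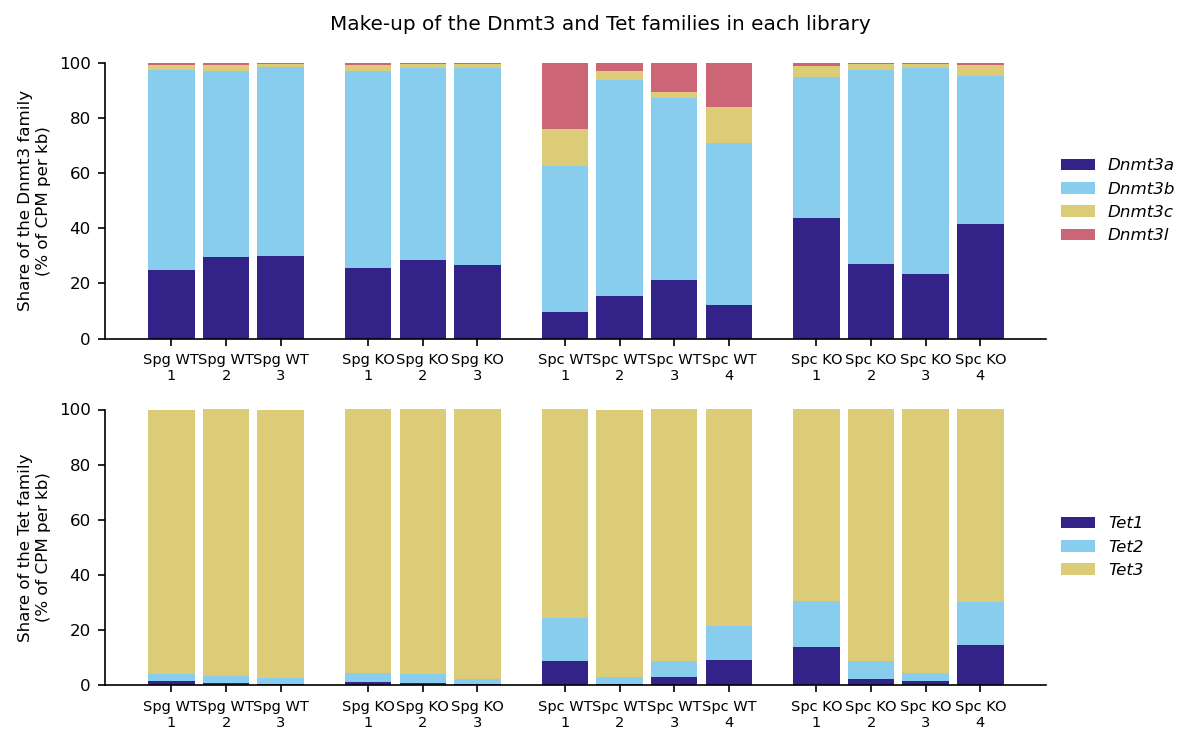
Share of each gene in the summed CPM per kb of the Dnmt3 family (top) and the Tet family (bottom), with 1 bar per library and gaps between the 4 groups. Dnmt3b and Tet3 lead in every library, Dnmt3l has a visible share in WT Spc, and the shares of Tet1 and Tet2 are high in Spc replicates 1 and 4 of both genotypes. In these WT replicates the shares rest on 6 and 6 counts of Tet1 and 12 and 9 of Tet2. The CPM of both genes in WT Spc is highest in replicate 3.

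KO Spc against KO Spg gave 0 of 9 genes called, against 2.99% of all features tested, nearly all of them higher in Spc (2.95%, with 0.0355% lower). The libraries did not overlap for 4 of the 9, Dnmt1, Dnmt3a, Dnmt3b and Tet3, all lower in Spc, against 27.6% of all genes in either direction. Of all features, 756 of 25318 were called in the main fit, but 112 of 26139 without Spg KO replicate 3. DESeq2 called 1 of the 9, Dnmt1, against 2414 of 25318 features. By edgeR, 4 of the 9 had an unadjusted p under 0.05, as had 5962 of 24340 genes. Dnmt1 went from 563 ± 93.2 CPM (SD, n = 3) in KO Spg to 263 ± 105 CPM (n = 4) in KO Spc, with a log2 fold change of -1.10 (SE 0.28, adjusted p 0.0283 by edgeR). Dnmt3b was at -1.07 (SE 0.48, adjusted p 0.186 by edgeR) and was called only with the replicate number as a block (-1.25, adjusted p 0.00343). Dnmt3a was at -0.77, Tet3 at -0.81 and Uhrf1 at -0.51, none of them called. Tet1 and Tet2 were at 2.68 (SE 0.89, adjusted p 0.0793 by edgeR) and 1.34 (SE 0.67, adjusted p 0.237 by edgeR), and at 0.54 and 0.17 with KO Spc replicates 1 and 4 left out. Here edgeR called 5 of 6 macrophage, 3 of 6 Leydig and 2 of 6 peritubular markers higher in KO Spc. It called 1 of 4 endothelial markers higher and 0 of 7 Sertoli and 0 of 3 erythroid markers. The part of cell composition was not tested.

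Whether the KO effect differed between Spc and Spg was tested directly by the interaction of stage and genotype, in a fit of all 14 libraries. It was called for 3 of the 9 genes, all with a higher KO effect in Spc, against 24.9% of all features tested (10.7% higher). The difference was 4.75 on the log2 scale for Tet1 (SE 1.24, adjusted p 0.00789 by edgeR), 3.71 for Tet2 (SE 0.96, adjusted p 0.00761 by edgeR) and 2.75 for Dnmt3a (SE 0.69, adjusted p 0.00667 by edgeR). These calls were close to the threshold. Of the 14 fits that left out 1 library, 8 kept that of Dnmt3a and 4 each those of Tet1 and Tet2, the largest adjusted p being 0.0150 for Dnmt3a without Spg KO replicate 2 and 0.0225 and 0.0212 for Tet1 and Tet2 without Spg KO replicate 3. With Spc replicates 1 and 4 summed 0 were called, against 3543 of 24706 features, and with those of the KO left out 0, against 3168 of 25759. Tet3 (3.01, adjusted p 0.0201), Dnmt3b (1.80, adjusted p 0.0459), Dnmt3l (-2.02, adjusted p 0.0491) and Uhrf1 (-0.74, adjusted p 0.0598) were not called. These comparisons share samples with the ones above and are not independent of them.

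Another 43 genes of the methylation pathway were sorted into 5 lists by function. In Spg, 0 of the 43 were called. In Spc, 26 were called, 19 higher and 7 lower in KO, or 60.5%, which is near the share of all features (57.4%). With Spc replicates 1 and 4 summed 12 were called (27.9%), against 8874 of 23213 features. With those of the KO left out 14 were called (32.6%), against 9327 of 25079. With 1 library left out, the fewest were 18 without WT replicate 4 (11017 of 23889 features). The most were 29 without WT replicate 3 (14396 of 23798). The counts per list below stand beside 27.4% higher and 30.1% lower among all features, and differences between lists were not tested. Of the genes named below, Uhrf2, Pcna, Nsd1, Zbtb33, Zbtb38, Mat2a and Gnmt were called neither with replicates 1 and 4 summed nor with those of the KO left out.

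Of 8 partners of maintenance methylation, 3 were higher and 3 lower (median log2 fold change 0.50). Hells, the chromatin remodeller LSH, was at 308 to 500 CPM in KO Spc and 36.7 to 121 CPM in WT and rose by 2.65 (SE 0.38, adjusted p 0.000207 by edgeR). Uhrf2, the paralog of Uhrf1, rose by 1.30 (SE 0.24, adjusted p 0.000844 by edgeR), opposite to Uhrf1. Pcna, the replication clamp, fell by 0.93 (SE 0.21, adjusted p 0.00300 by edgeR) and Dmap1, a DNMT1-associated protein, by 1.55 (SE 0.19, adjusted p 9.46e-05 by edgeR). Pcna was at -0.21 with library totals, not called, and kept its call in 6 of the 8 fits that left out 1 library.

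Of 10 genes that direct or permit de novo methylation, 4 were higher and 2 lower (median 1.26). Tex15, a nuclear partner of the piRNA pathway, rose by 2.54 (SE 0.41, adjusted p 0.000393 by edgeR), from 39.3 to 141 CPM in WT Spc to 342 to 448 CPM in KO. Kdm1b, a histone H3K4 demethylase, rose by 3.02 (SE 0.56, adjusted p 0.000937 by edgeR) and Nsd1, a histone H3K36 methyltransferase, by 1.25 (SE 0.24, adjusted p 0.00112 by edgeR). Trim28, the corepressor of KRAB zinc finger proteins, fell by 1.49 (SE 0.21, adjusted p 0.000178 by edgeR). Its range was 396 to 453 CPM in KO Spc, 854 to 1326 CPM in WT Spc and 452 to 524 CPM in WT Spg.

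Of 11 genes that repair oxidised bases, bind TET proteins or are otherwise linked to demethylation, 6 were higher and 0 lower (median 2.69). Tdg, the glycosylase that excises the oxidised bases, rose by 1.77 (SE 0.34, adjusted p 0.00118 by edgeR), from 7.50 to 20.4 CPM in WT Spc to 39.6 to 52.4 CPM in KO. Ogt, a glycosyltransferase that binds TET proteins, rose by 3.27 (SE 0.56, adjusted p 0.000570 by edgeR), with 100 to 122 CPM in KO Spc and 4.56 to 28.4 CPM in WT. Gadd45b, a stress-induced gene linked to demethylation, rose by 3.01 (SE 0.44, adjusted p 0.000233 by edgeR) and Cxxc4, which binds TET2 and unmethylated CpGs, by 4.09 (SE 0.76, adjusted p 0.000933 by edgeR). Cxxc4 was low in both groups, at 0 to 0.144 CPM in WT Spc and 0.652 to 1.02 CPM in KO.

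Of 7 genes from families of methyl-CpG-binding proteins, 3 were higher and 1 lower (median 0.66). Zbtb33, which encodes Kaiso, rose by 3.24 (SE 0.82, adjusted p 0.00508 by edgeR). Zbtb38 rose by 1.49 (SE 0.36, adjusted p 0.00447 by edgeR) and was called in 3 of the 8 fits that left out 1 library, fewer than for Zbtb33 (5). Mbd3, a subunit of the NuRD complex, fell by 1.84 (SE 0.21, adjusted p 5.86e-05 by edgeR). Of 7 genes that supply the methyl donor, 3 were higher and 1 lower (median 0.56). Mat2b and Mat2a, subunits of the enzyme that makes S-adenosylmethionine, rose by 1.54 (SE 0.25, adjusted p 0.000452 by edgeR) and 0.92 (SE 0.23, adjusted p 0.00488 by edgeR), the call of Mat2a being kept in 2 of the 8 fits that left out 1 library. Gnmt, which consumes it, rose by 2.26 (SE 0.52, adjusted p 0.00302 by edgeR) at levels under 1 CPM and kept its call in 4 of the 8 fits.

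**Figure D5:**
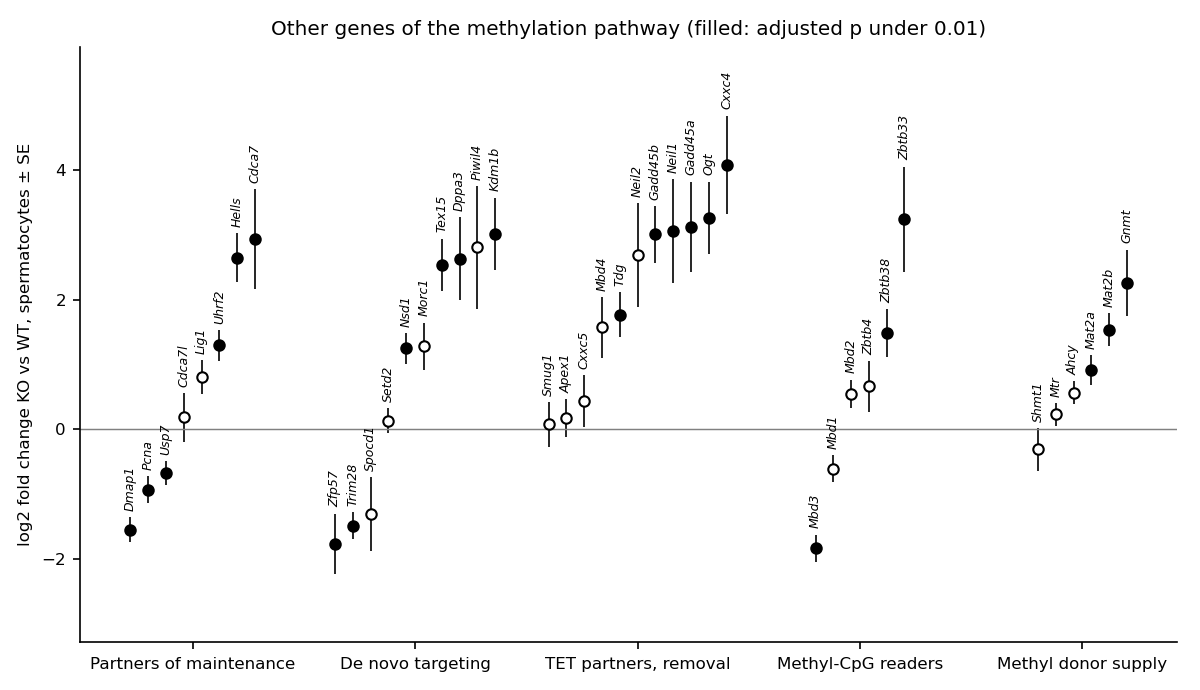
Log2 fold changes of KO against WT in Spc with standard errors for 41 of the 43 other genes, in 5 lists, with filled circles for an edgeR adjusted p under 0.01. The list of TET partners and genes of removal holds no gene called lower.

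The genes whose pattern over the 14 libraries was most like that of each of the 9 were found among 14696 genes with a mean count of at least 100, by the root mean square difference of centred log2 CPM. Uhrf1 had the smallest absolute difference, to Cpsf1, of 0.0738 on the log2 scale against a spread of 0.393 of Uhrf1 itself, followed by Sf3a1 (0.1001). Dnmt3a was closest to Dock9 (0.131, own spread 1.79) and Nipa1 (0.159), Dnmt3b to Garem2 (0.180, own spread 1.44) and Rasd2 (0.188), and Dnmt1 to Ube2cbp (0.178, own spread 0.644) and Rnf157 (0.185). Tet3 was closest to the meiotic gene Tex11 (0.195, own spread 2.17) and to Csnk1e (0.203). Tet1 had Sh3bgrl (0.320, own spread 1.78) and Mbnl1 (0.321), and Tet2 had Tnfaip3 (0.344, own spread 1.71) and Sat1 (0.385). Dnmt3c, with Usp53 (0.232, own spread 0.552), and Dnmt3l, with Osbpl10 (0.353, own spread 0.950), had the loosest matches relative to their own spread. None of the 9 genes was among the 2 closest to another.

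Transposable element (TE) copies inside these genes were examined in the second kind of table, which gives TPM over TE copies alone. The 9 gene bodies held 1097 listed copies, of which 349 had a value above 0 in some library and 143 a mean of at least 0.5 TPM. The highest mean, 22.4 TPM, belonged to an ID_B1 copy in the orientation of Dnmt1, with 20.6 to 51.0 TPM in Spg and 4.18 to 41.2 TPM in Spc. A B1F1 copy in the orientation of Dnmt1 had 10.6 to 47.0 TPM in Spg, 12.4 to 18.6 TPM in KO Spc and 0 to 9.20 TPM in WT Spc. An ID_B1 copy in the orientation of Tet3 had 3.65 to 33.7 TPM in Spg, 4.62 to 23.9 TPM in KO Spc and 0 to 10.6 TPM in WT Spc. An L3 copy opposite to Dnmt3a had 13.1 to 26.3 TPM in Spg, 8.61 to 14.1 TPM in KO Spc and 0 to 3.53 TPM in WT Spc. The Spc groups were thus apart for the B1F1 copy in Dnmt1, which itself was not called, and for the copy opposite to Dnmt3a, but overlapped for the ID_B1 copies in Dnmt1 and Tet3. The source of these reads was not tested.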

How the data were processed

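Polyadenylated RNA of sorted Spg (3 KO, 3 WT) and Spc (4 KO, 4 WT) was sequenced as stranded libraries. The authors aligned reads to GRCm38 (GENCODE M25) with STAR 2.7.3a, keeping reads with up to 100 alignments, and the deposited counts per gene and transposable element subfamily were made by TEtranscripts with multi-mapping reads shared out and strand used. The deposited TPM values per TE copy come from TElocal and are relative to TE copies alone. The submitters' processing notes also name cutadapt 4.0 and DESeq2 1.44.0, and columns with the authors' own fold changes and p-values were not used. The authors left out 1 Spg library per genotype for poor RNA quality. Libraries held 40555726 to 53323651 counts.

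Counts were tested in R 4.3.3 with the edgeR 4.0.16 quasi-likelihood test, two-sided, after its default filter on low counts and with TMM scaling over genes and TE subfamilies. A call is a Benjamini-Hochberg adjusted p under 0.01 over all features tested. The 2 stages were fitted apart for KO against WT, and all 14 libraries together for the stage comparisons and the interaction. The share of all genes without overlap used genes with a mean count of at least 10. Alternatives were DESeq2 1.42.0, its size factors, TMM on genes alone, library totals, a mean count of at least 50, no filter, a threshold of 0.05, the replicate number as a block, Spc replicates 1 and 4 summed, and each library left out. Leaving out KO Spc replicates 1 and 4 was added after seeing the data. Scripts were tested on simulated data. Samples are separate by their labels and the study calls its replicates biological. It describes triplicates, while its total of sorted samples matches the 4 Spc samples per genotype in the labels. Whether some share an animal was not given. The p-values set group differences against the spread between these samples, estimated with information shared over features.

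In Spg, deviations from the group means correlated between same-numbered KO and WT samples (r = 0.667, 0.167 and 0.237). KO replicate 2, however, correlated more with WT replicate 3 (r = 0.305). The main fit did not pair the samples, and the replicate number entered only the alternative fit with a block. With the block, 0 of the 9 genes were called in Spg, as without it. Named genes are the 9, the 4 genes of each pathway list with the smallest adjusted p in Spc, and the 2 genes closest in pattern. Of the pathway genes, 2 are counted in their lists but not reported here. The members and lists were chosen with earlier results of these data known. Positions and shared windows come from GENCODE vM21, promoters from RefSeq.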

Additional observations from a re-analysis of the deposited data

Results flagged for a closer look

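In WT Spc, Tet2 was at 1.68 CPM in replicate 3, far from the other 3 libraries (0.271 to 0.370 CPM), by Dixon's test at its 95% critical value. Chance alone marks about 1 in 20 groups, and 18 groups were examined from both ends. The library was kept.

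The KO effect differed between Spc and Spg in the interaction test of all 14 libraries, by 4.75 on the log2 scale for Tet1, 3.71 for Tet2 and 2.75 for Dnmt3a, each larger in Spc. The groups of these genes overlapped in Spg, while those in Spc were apart, with KO above WT. With KO Spc replicates 1 and 4 left out the differences were smaller for Tet1 and Tet2, and 0 of the 3 were called.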

How the results depend on the processing

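Of 930 values of single genes under the alternatives, 800 kept both direction and side of the threshold, 79 fell below it, 18 rose past it and 33 changed sign. In Spg, 0 of the 9 genes were called under every alternative. Of the 9, 7 were called between KO and WT Spc, 3 to 7 with 1 library left out, the fewest without KO replicate 2, and 2 with Spc replicates 1 and 4 summed or with those of the KO left out. Over all features, 13124 of 22848 were called there, 8874 of 23213 with these replicates summed and 9327 of 25079 with those of the KO left out. Between WT stages the count of 5 became 8 at a threshold of 0.05, 3 with replicates 1 and 4 summed and 3 to 5 with 1 library left out. Between KO stages the count of 0 became 1 with DESeq2, 1 at 0.05, 1 with the replicate block and 0 to 1 with 1 library left out. The interaction count of 3 became 6 at 0.05, 0 with replicates 1 and 4 summed, 0 with those of the KO left out and 0 to 5 with 1 library left out.

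Scaling by library totals turned the log2 value of Dnmt1 to 0.68 between KO and WT Spc and 0.69 in the interaction, of Uhrf1 to -0.60 between WT stages and 0.0191 in the interaction, and of Tet3 in Spg to 0.00395. It also turned the split of calls in Spc from 6254 higher and 6870 lower to 8329 and 4951, and the median of all genes in the interaction from 0.20 to 0.90. Dnmt1 in Spc was at 0.00935 with a mean count of at least 50, 0.0758 with replicates 1 and 4 summed and 0.36 with those of the KO left out, and in the interaction at 0.00877 with no filter, 0.0164 with replicates 1 and 4 summed and 0.43 with those of the KO left out. With 1 library left out, values in Spg ranged from -0.13 to 0.13 for Dnmt1, -0.0692 to 0.13 for Dnmt3a, -0.0399 to 0.21 for Dnmt3b, -0.21 to 0.29 for Dnmt3c, -0.70 to 0.31 for Tet1, -0.12 to 0.16 for Tet3 and -0.23 to 0.0649 for Uhrf1. Those of Dnmt1 ranged from -0.25 to 0.11 in Spc and from -0.19 to 0.17 in the interaction. The cause was not tested.

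With the replicate number as a block, 5 of the 9 genes were called in Spc, without Dnmt3l (-2.22) and Uhrf1 (-0.79), 4 between WT stages and 3 in the interaction. In Spc the numbers did not pair the samples (r = 0.0589, 0.197, -0.0337 and 0.111). Low counts limit Tet1, Tet2, Dnmt3c and Dnmt3l, whose lowest WT Spc libraries held 2, 9, 11 and 15 counts.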
